A study of Mus musculus with 6 samples.

Results

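The 10 genes described here mark the blood vessel wall of the mouse colon and the steps by which leukocytes leave the blood there. They are *Pecam1*, *Cdh5*, *Kdr* and *Plvap* as endothelial identity genes, *Ackr1* as a venular chemokine-binding receptor, the selectins *Sele* and *Selp*, and the integrin ligands *Icam1*, *Vcam1* and *Madcam1*. They were taken by gene name from the table of all 27202 genes, in which all 10 are listed, by a rule that holds no threshold on measured values but was written with earlier results of these data known. RNA from colonic tissue was sequenced in 3 *Nedd4l* fl/fl Villin Cre mice, where the Villin promoter confines Cre, and so the loss of *Nedd4l*, to intestinal epithelial cells, and in 3 *Nedd4l* fl/fl littermates, which carry the same floxed alleles without Cre, all on a C57BL/6J background. As in the labels, the former are called cKO1, cKO2 and cKO3 below (genotype Nedd4l knockout) and the latter WT1, WT2 and WT3, although WT mice carry floxed alleles too. All 6 mice were 8 to 10 weeks old and drank 2% dextran sulfate sodium (DSS), a polymer toxic to the epithelium of the colon, for 7 days. No mouse without DSS is in this comparison, so the values set 2 genotypes side by side under colitis and not colitis against health. NEDD4L is a HECT-type E3 ubiquitin ligase, and most of the genes below are expressed mainly outside the epithelium from which it is deleted.

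Leukocytes leave the blood in ordered steps. Selectins on the venular endothelium slow the cells into rolling, chemokines held at the vessel surface activate leukocyte integrins, and the integrins then bind immunoglobulin-superfamily ligands such as ICAM-1, VCAM-1 and MAdCAM-1 before the cells cross the endothelial junctions, which are held by VE-cadherin and PECAM-1. In resting venules E-selectin and VCAM-1 are scarce, and inflammatory cytokines such as TNF and IL-1 induce them, together with ICAM-1, through NF-kappaB. MAdCAM-1 is the gut addressin, bound by the integrin alpha4beta7, and it is found on venules of the lamina propria and of gut lymphoid tissue.

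The values are normalized counts, a gene's reads after division by the size factor of its library. *Nedd4l* itself was at 476, 942 and 566 in cKO1, cKO2 and cKO3 and at 1241, 1271 and 1266 in WT1, WT2 and WT3, so that cKO2 kept the most transcript of its genotype (log2 fold change -0.99, limma adjusted p = 0.225, and -1.28 with adjusted p = 0.0131 when cKO2 was left out). Colonic tissue also holds cells in which the Villin promoter is silent. Library totals ran from 14914367 to 17547270 in units of each library's smallest value. Summed over 7 epithelial markers the level was between 143622 and 171230 in the 6 libraries, and summed over 30 endothelial genes other than the 10 it was between 3534 and 7978, so the tissue label and the presence of endothelium were borne out by their markers. Because whole tissue was sequenced, fewer cells of a type and less RNA per cell cannot be told apart for any gene below. Beyond their being littermates, nothing says how the mice were drawn from litters, cages or days, and the p-values measure the spread between these 6 samples.

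The promoters of the cytokine-inducible genes and of *Madcam1* are shown for the letters of NF-kappaB, IRF and ETS motifs that stand in them. RefSeq windows (GRCm38.p6) were matched for 6 of the 10 genes, *Sele*, *Selp*, *Ackr1*, *Kdr*, *Icam1* and *Madcam1*. No window was matched for *Pecam1*, *Cdh5*, *Plvap* or *Vcam1*. The 250 bases before the RefSeq start of transcription are printed 5′ to 3′ on the gene's strand. That start differs from the gene positions given below for *Icam1*, *Kdr* and *Ackr1*. Capitals mark every match, on either strand, to the loose kappaB form (GGG and CC, 5 bases of any kind between them), the strict kappaB form (the same with TT after 2 of the 5 bases), the IRF form (GAAA repeated after 2 bases of any kind), AGGAAG (an ETS form) or GGAAATTCC, a symmetric kappaB form searched only after the windows had been read.
Icam1 promoter, chr9:21015690-21015939, plus strand: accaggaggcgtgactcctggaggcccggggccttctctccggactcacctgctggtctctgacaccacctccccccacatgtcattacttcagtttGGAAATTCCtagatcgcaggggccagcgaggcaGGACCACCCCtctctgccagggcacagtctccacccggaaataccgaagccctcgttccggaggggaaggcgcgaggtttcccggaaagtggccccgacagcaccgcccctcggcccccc
Selp promoter, chr1:164115014-164115263, plus strand: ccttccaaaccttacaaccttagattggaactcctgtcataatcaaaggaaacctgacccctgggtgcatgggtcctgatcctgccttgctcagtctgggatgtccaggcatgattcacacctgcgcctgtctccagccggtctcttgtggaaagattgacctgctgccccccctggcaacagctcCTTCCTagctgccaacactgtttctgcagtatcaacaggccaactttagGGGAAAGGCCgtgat
Sele promoter, chr1:164047984-164048233, plus strand: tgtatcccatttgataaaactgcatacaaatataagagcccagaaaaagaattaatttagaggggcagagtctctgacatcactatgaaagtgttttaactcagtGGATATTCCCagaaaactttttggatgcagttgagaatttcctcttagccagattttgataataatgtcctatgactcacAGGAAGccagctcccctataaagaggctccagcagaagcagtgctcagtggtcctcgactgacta
Madcam1 promoter, chr10:79664309-79664558, plus strand: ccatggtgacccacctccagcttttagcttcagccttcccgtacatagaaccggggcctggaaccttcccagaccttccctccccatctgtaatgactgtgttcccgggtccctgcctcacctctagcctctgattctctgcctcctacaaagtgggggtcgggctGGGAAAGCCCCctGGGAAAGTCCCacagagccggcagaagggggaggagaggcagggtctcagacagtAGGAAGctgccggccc

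The *Icam1* window holds GGAAATTCC at positions -153 to -145 from the RefSeq start, a form found in 0.286% of the 32851 RefSeq windows of the same length. *Madcam1* holds 3 matches to the strict form, which 4.11% of all windows hold, at -84 to -75, -83 to -74 and -70 to -61. The former 2 overlap, and all 3 also match the loose form. The loose form was matched in *Icam1*, *Selp*, *Sele*, *Madcam1* and *Kdr*, as in 45.8% of all windows, and is therefore a common string. AGGAAG was matched in *Selp*, *Sele*, *Madcam1* and *Ackr1* (29.5% of all windows), and the IRF form in none of the 6 (2.98% of all windows). These are descriptions of letters, and binding was not measured.

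The genes were compared between genotypes as log2(normalized count + 1) with limma, over the 16246 genes whose mean value reached 10 and with Benjamini-Hochberg adjustment over all of them. Of the 10 genes 9 passed this filter and *Sele* did not. Among the 9, 8 had a log2 fold change above 0 in cKO mice and 1 below 0, with a median of 0.67 against 0.0013 over all genes tested. Of all genes tested 50.2% were above 0. None passed an adjusted p of 0.05 (range 0.310 to 0.876), as was the case for all genes tested (0% called). At an unadjusted p under 0.05, 3 of the 9 were higher (*Icam1*, *Vcam1* and *Selp*) and 0 were lower, where 6.91% of all genes tested were higher and 7.08% lower. All 3 cKO libraries lay above all 3 WT libraries for 2 of the 9, *Icam1* and *Vcam1*, where 10.5% of all genes did so in that direction and 10.9% in the opposite direction. The library cKO1 was the highest of its genotype for 10 of the 10 genes and the highest of all 6 for 9, against 24.4% of all genes tested. Without it the median of the 9 was 0.29, 7 were above 0, and *Icam1* and *Vcam1* remained at an unadjusted p under 0.05 (5.31% of all genes were higher at that level). Without cKO2, the library that kept the most *Nedd4l*, the median was 0.78 and 9 of 9 were above 0.

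**Figure D1:**
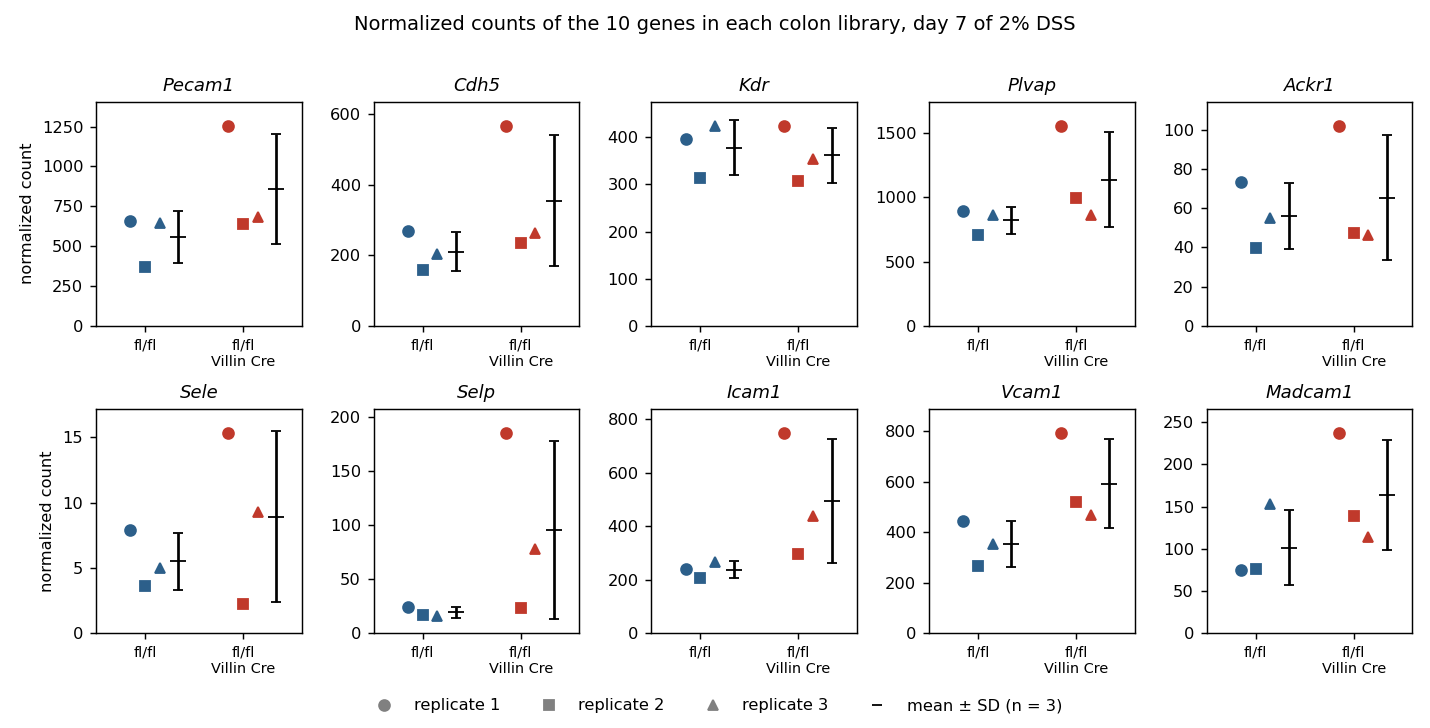
Normalized count of each of the 10 genes (linear axis from 0) in the 3 WT (fl/fl, blue) and 3 cKO (fl/fl Villin Cre, red) libraries, with symbols for the replicate number and a bar for the mean ± SD. The library cKO1 was the highest of all 6 for every gene except *Kdr*, where WT3 was, and only *Icam1* and *Vcam1* have all 3 red points above all 3 blue points.

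*Selp* had the widest difference of the 10. It encodes P-selectin, which endothelial cells and platelets store in granules and move to the surface within minutes of activation. The gene (ENSMUSG00000026580) spans bases 164115264 to 164150026 of chromosome 1 (plus strand, GRCm38, the build of all gene positions here). It was measured at 185, 23.2 and 78.4 in cKO1, cKO2 and cKO3 and 24.7, 17.1 and 16 in WT1, WT2 and WT3. The libraries cKO1 and cKO3 were far above every WT library, whereas cKO2 lay inside their range, so the groups overlapped. The means were 95.5 ± 82.2 and 19.3 ± 4.74 (SD, n = 3 each), a log2 fold change of 1.83 (SE 0.70, 95% interval 0.16 to 3.51, limma adjusted p = 0.334). Within cKO the highest library was 7.97 times the lowest, against 1.55 times in WT. The log2 fold change was 2.61 without cKO2 (limma adjusted p = 0.0486) and 1.14 without cKO1 (adjusted p = 0.440), and across the 15 alternative settings its adjusted p lay between 0.0486 and 0.561. An antisense gene, *Gm16587*, overlaps *Selp* and was at 1.92 or below in every library; whether reads were assigned by strand is not known. Summed over 5 platelet genes the level was 137 in cKO1, 160 in cKO2 and 104 in cKO3. It ran from 86.4 to 164 in WT libraries. Most of the sum came from *Pf4* (107, 112 and 57.8 in cKO1, cKO2 and cKO3). The part of platelets in the *Selp* values was not tested.

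*Sele*, which encodes E-selectin, lies 5′ of *Selp* on the same strand (ENSMUSG00000026582, chromosome 1 from 164048234 to 164057677). Normalized counts of *Sele* were 15.3, 2.21 and 9.28 in cKO1, cKO2 and cKO3 and 7.90, 3.60 and 4.99 in WT1, WT2 and WT3. The highest and the lowest of the 6 values both belonged to cKO. In units of the smallest value of a library these are 16, 2 and 9 against 8, 4 and 5, and at this depth a genotype difference was not detectable. With no filter on low values its log2 fold change was 0.38 (limma adjusted p = 0.857).

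*Icam1* encodes ICAM-1, the ligand of the leukocyte integrins LFA-1 and Mac-1, and is expressed by endothelial cells, leukocytes and inflamed epithelium alike. The gene (ENSMUSG00000037405) occupies bases 21015985 to 21028817 of chromosome 9, plus strand. It stood at 747, 296 and 439 in cKO1, cKO2 and cKO3 and at 240, 205 and 267 in WT1, WT2 and WT3. Each cKO library was above each WT library, although cKO2 only by 1.11 times the nearest. The means were 494 ± 230 and 237 ± 30.8 (SD, n = 3 each), a ratio of 2.08 and a log2 fold change of 0.96 (SE 0.32, 95% interval 0.19 to 1.73, limma adjusted p = 0.310). An exact two-sided permutation test on *Icam1* gave 0.10, below which p cannot go with 3 mice against 3. Without cKO1 the log2 fold change was 0.61, without cKO2 it was 1.28, and the adjusted p over the alternatives ran from 0.0550 to 0.544.

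*Vcam1*, the gene of VCAM-1, which binds the integrins alpha4beta1 and alpha4beta7, is also expressed by stromal cells and macrophages. It lies on the minus strand of chromosome 3 (ENSMUSG00000027962, 116109949 to 116129688). Its normalized count was 793, 519 and 467 in cKO1, cKO2 and cKO3 and 447, 265 and 354 in WT1, WT2 and WT3. The groups did not overlap, but the lowest cKO library was only 1.04 times the highest WT library. The means of 593 ± 175 and 356 ± 91.0 (SD, n = 3 each) gave a log2 fold change of 0.73 (SE 0.25, 95% interval 0.12 to 1.33, limma adjusted p = 0.313), which was 0.50 without cKO1 and 0.48 with libraries weighted by their fit to the model. Unlike *Selp* and *Icam1*, *Vcam1* was higher in cKO2 than in cKO3.

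*Madcam1* lies on the plus strand of chromosome 10 (ENSMUSG00000020310, 79664559 to 79668537). The gut addressin stood at 237, 139 and 114 in cKO1, cKO2 and cKO3 and at 75.1, 76.5 and 153 in WT1, WT2 and WT3. Here WT3 was above cKO2 and cKO3, and the groups overlapped. The means were 164 ± 64.6 and 101 ± 44.5 (SD, n = 3 each), a log2 fold change of 0.70 (SE 0.36, 95% interval -0.16 to 1.55, limma adjusted p = 0.423). It was 1.03 without WT3 and 0.40 without cKO1. B cell markers, which come with the lymphoid follicles where this addressin is abundant, had their summed level at 4700, 2259 and 1764 against 1327, 2210 and 3186, and the library highest in each genotype was the one highest for *Madcam1*. Their part in the *Madcam1* values was not tested.

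Among the endothelial identity genes, *Pecam1* encodes PECAM-1 (CD31), a junctional protein also carried by platelets and leukocytes. The gene (ENSMUSG00000020717, chromosome 11 from 106654217 to 106750628, minus strand) was at 1256, 639 and 682 in cKO1, cKO2 and cKO3 and at 660, 369 and 643 in WT1, WT2 and WT3. The library cKO1 stood apart on the high side and WT2 on the low side, while the other libraries lay within a narrow band. The log2 fold change was 0.60 (SE 0.34, limma adjusted p = 0.466) and 0.29 without cKO1. *Cdh5*, the gene of VE-cadherin and the most endothelium-restricted of the set (ENSMUSG00000031871, chromosome 8 from 104101625 to 104144511, plus strand), had the same highest and lowest libraries, with 567, 234 and 262 in cKO against 268, 159 and 202 in WT. Its log2 fold change of 0.67 (SE 0.37, limma adjusted p = 0.447) was 0.27 without cKO1.

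*Plvap* forms the diaphragms of fenestrated capillaries and of caveolae (ENSMUSG00000034845, chromosome 8 from 71497765 to 71511752, minus strand). Its values were 1560, 992 and 864 in cKO1, cKO2 and cKO3 and 898, 704 and 867 in WT1, WT2 and WT3. The libraries cKO1 and cKO2 were above the WT range and cKO3 was inside it (log2 fold change 0.43, SE 0.23, limma adjusted p = 0.429, and 0.18 without cKO1).

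*Kdr*, which encodes the VEGF receptor VEGFR2, was the only gene of the 9 with a log2 fold change below 0. The gene is on the minus strand of chromosome 5 (ENSMUSG00000062960, 75932827 to 75978458). Counts of 424, 307 and 354 in cKO and of 396, 314 and 425 in WT1, WT2 and WT3 overlapped widely. The log2 fold change was -0.066 (SE 0.16, limma adjusted p = 0.876) with a 95% interval from -0.45 to 0.31, the narrowest of the 9, and its sign turned without cKO2 (0.045) or without WT3 (0.024).

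*Ackr1* encodes the Duffy antigen receptor, which carries chemokines across the venular wall and is also made by erythroid cells. It lies on the minus strand of chromosome 1 (ENSMUSG00000037872, 173331886 to 173333750). It was at 102, 47.5 and 46.4 in cKO and at 73.1, 39.6 and 54.9 in WT1, WT2 and WT3. The library cKO1 alone was above the range of the other genotype. The log2 fold change of 0.16 (SE 0.37, limma adjusted p = 0.861) turned to -0.20 without cKO1 and to -0.15 with library weights. Erythroid genes summed to 118 to 308 in cKO and 97.2 to 325 in WT libraries, with cKO1 at 155.

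**Figure D2:**
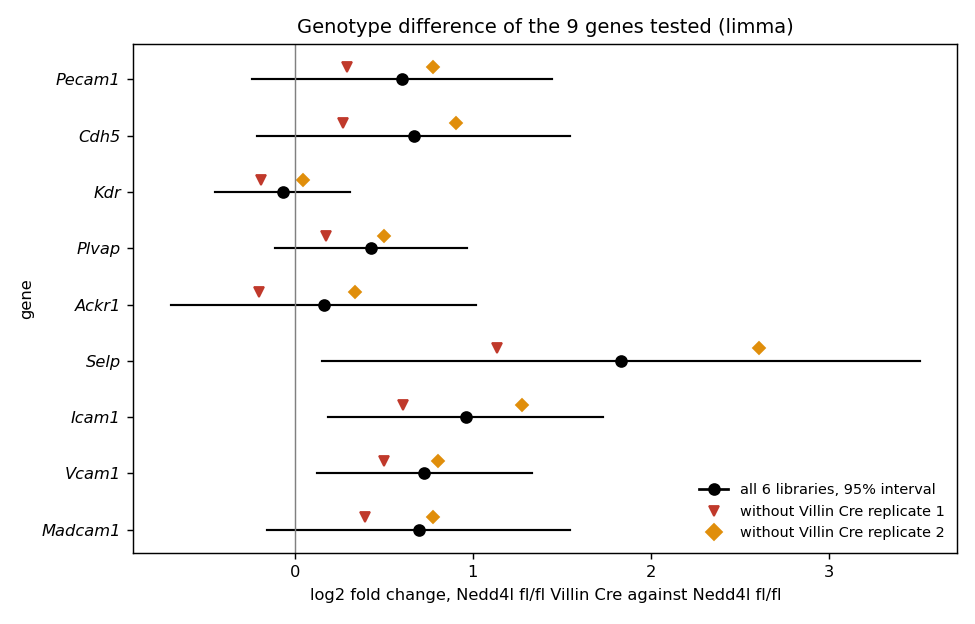
Log2 fold change of cKO against WT for the 9 genes tested, from limma (black points, lines for the 95% interval), and the value without cKO1 (red triangles) or cKO2 (orange diamonds). The intervals of *Selp*, *Icam1* and *Vcam1* lie above 0, every red triangle is to the left of its black point, and *Selp* spans 1.14 to 2.61 between these settings.

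Compared per length of gene, over the 6 libraries, *Plvap* was the most abundant of the 10 transcripts, with a mean of 494 normalized counts per kilobase, and its lowest library (354) was above the highest library of the next gene. The next 7 genes followed in a continuous order in which the ranges of neighbors overlapped, from *Pecam1* (mean 114, range 59.2 to 202) through *Madcam1* (92.3), *Icam1* (83.9), *Cdh5* (67.1), *Vcam1* (53.5) and *Ackr1* (43.1) to *Kdr* (41.0, range 34.0 to 47.1). These means pool the genotypes, and in WT alone *Kdr* (41.9) stood above *Vcam1* (40.1) and *Ackr1* (39.8). The selectins were at the bottom of the order. *Selp* had a mean level of 13.0 per kilobase (range 3.62 to 41.9) and *Sele* of 2.48 (range 0.759 to 5.27).

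Endothelial transcripts as a class differed in level between libraries, and 30 further endothelial genes, none of them among the 10, were used to follow this. Of these 30, all of which were tested, 26 had a log2 fold change above 0 and 4 below, with a median of 0.42 (0.15 without cKO1). None passed an adjusted p of 0.05, and at an unadjusted p under 0.05, 1 of the 30 was higher and 0 lower, below the 6.91% and 7.08% of all genes tested. That gene was *Vwf*, which encodes von Willebrand factor (839 ± 186 against 590 ± 98.7, SD, n = 3 each, log2 fold change 0.50, limma adjusted p = 0.329). The sialomucin gene *Emcn* (log2 fold change 0.70) and the junctional adhesion gene *Esam* (0.67) followed, with adjusted p of 0.374 and 0.386 from limma. As a mean of log2 values the list stood at 7.47, 6.70 and 6.68 in cKO1, cKO2 and cKO3 and at 6.75, 6.31 and 6.65 in WT1, WT2 and WT3, again highest in cKO1 and lowest in WT2.

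Each of the 10 genes was then expressed as its log2 level minus this list mean in the same library. On that scale *Pecam1* (difference between genotype means 0.23), *Cdh5* (0.30), *Plvap* (0.054), *Ackr1* (-0.21), *Sele* (0.0038) and *Madcam1* (0.32) overlapped between genotypes. *Icam1* was 2.08, 1.51 and 2.11 above the list mean in cKO1, cKO2 and cKO3 and 1.16, 1.37 and 1.41 above it in WT1, WT2 and WT3, without overlap (difference 0.59). *Vcam1*, at 2.16, 2.32 and 2.20 against 2.06, 1.74 and 1.82, did not overlap either (difference 0.35). *Icam1* and *Vcam1* lay higher relative to the other endothelial genes, as 1.63% of all genes tested did on this scale. Both were already without overlap before the subtraction, in the same libraries, so this is not separate evidence. *Kdr* went the other way, with 1.26, 1.57 and 1.80 against 1.88, 1.99 and 2.08 (difference -0.44), where 17.4% of all genes tested lay wholly lower on this scale. *Selp* relative to the list was at 0.071, -2.10 and -0.36 against -2.07, -2.14 and -2.57, so that cKO2 was within the WT range and the groups overlapped.

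**Figure D3:**
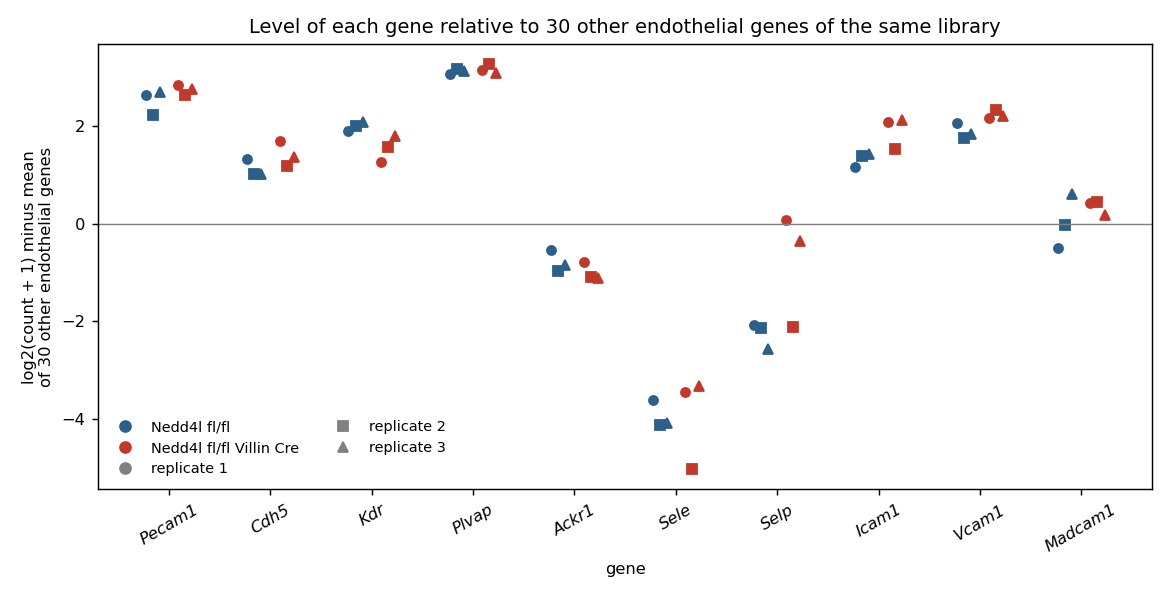
Log2(normalized count + 1) of each gene minus the mean over 30 other endothelial genes in the same library, for WT (fl/fl, blue) and cKO (fl/fl Villin Cre, red) replicates. *Icam1* and *Vcam1* have all red points above all blue points, *Kdr* has all red points below, and for *Selp* only cKO1 and cKO3 are above the blue points.

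The leukocyte side of adhesion was read from 13 receptors and selectin ligands, all tested, of which 11 were above 0 and 2 below (median log2 fold change 0.32, and 0.23 without cKO1). At an unadjusted p under 0.05, 1 of the 13 was higher and 0 lower, near the share over all genes tested (6.91% higher and 7.08% lower), and none passed adjustment. *Itgb2*, the beta chain shared by LFA-1 and Mac-1, the receptors of ICAM-1, was at 763, 580 and 595 against 538, 353 and 473, without overlap (log2 fold change 0.52, limma adjusted p = 0.306). *Itgam*, the alpha chain of Mac-1, had a log2 fold change of 0.81 (limma adjusted p = 0.408) with overlapping groups. Among 11 tested enzymes that build selectin ligands 7 were above 0 and 4 below (median 0.19, and 0.11 without cKO1), with 3 higher and 1 lower at an unadjusted p under 0.05, where all genes tested gave 6.91% and 7.08%. *C1galt1c1*, the chaperone of the core 1 O-glycan galactosyltransferase, stood at 882 ± 26.3 against 613 ± 24.7 (SD, n = 3 each), with a log2 fold change of 0.52 (limma adjusted p = 0.123), and *B4galt1* at 0.42 (adjusted p = 0.232). *Chst4*, a sulfotransferase known from high endothelial venules, had a log2 fold change of -0.42 (limma adjusted p = 0.301). It was at 1074 to 1808 in the 6 libraries, where *Madcam1* was at 75.1 to 237, and its cells of origin were not resolved. These enzymes are made by many cell types of the colon, including the epithelium in which *Nedd4l* is deleted.

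Of 15 genes with a part in the crossing of junctions by leukocytes, 13 were above 0 and 2 below (median 0.24, and 0.10 without cKO1), with 3 higher and 0 lower at an unadjusted p under 0.05 (all genes tested, 6.91% and 7.08%). The 3 were *Sirpa* (log2 fold change 0.53), the tetraspanin gene *Cd151* (0.24) and *Cd47* (0.46), the ligand of SIRP alpha, with adjusted p from 0.292 to 0.316 from limma. None of these 3 is particular to endothelium. *Cd151* was at 1694 to 2241 and *Cd47* at 1255 to 2337 in the 6 libraries, where *Cdh5* was at 159 to 567. The cells of origin were not resolved. Of 21 genes for cytokines and signals that activate endothelium, 19 were above 0 and 2 below (median 0.37, and 0.13 without cKO1), with 4 higher and 0 lower at that level, beside the same 6.91% and 7.08% of all genes tested. *Il1b* was at 993, 255 and 424 in cKO1, cKO2 and cKO3 and at 113, 72.0 and 91.9 in WT1, WT2 and WT3 (log2 fold change 2.38, limma adjusted p = 0.211). Its order within cKO, cKO1 above cKO3 above cKO2, was that of *Selp* and *Icam1*, but also of *Pecam1*, *Cdh5*, *Kdr*, *Sele* and *Tnf*. The library cKO1 was the highest of all 6 for 24.4% of all genes tested. A link between *Il1b* and the adhesion genes was not tested. *Bcl3*, a nuclear cofactor of NF-kappaB, had a log2 fold change of 0.54 and *Tnfrsf1b*, a TNF receptor gene, one of 0.62 (adjusted p = 0.286 and 0.317 from limma). *Tnf* itself overlapped between genotypes (176 ± 125 against 102 ± 12.0, SD, n = 3 each).

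Markers of other cell types that express these adhesion genes also differed between the libraries. Summed over 6 pan-leukocyte genes the level was 7139 to 10746 in cKO and 5480 to 7662 in WT libraries, and over 8 monocyte and macrophage genes 9035 to 10726 against 4972 to 8602. *Lyz2* was the largest part of the latter sum. *Lyz2*, *Ly6c2* and *Ccr2* lay wholly higher in cKO, as 10.5% of all genes tested did. *Cd68*, *C1qa*, *C1qb*, *Csf1r* and *Adgre1* overlapped between genotypes. Fibroblast genes (6) summed to 20966 to 42446 against 10564 to 18057, and pericyte genes (6) to 1637 to 4247 against 1437 to 1799. The collagen genes *Col1a1*, *Col1a2* and *Col3a1* made up most of the fibroblast sum in every library and lay wholly higher in cKO. *Pdgfra*, *Dcn* and *Lum* overlapped between genotypes, so the sum does not show these 3 genes. Of 7 neutrophil markers 6 had a log2 fold change above 0. *S100a9* was at 2680, 27.6 and 348 in cKO1, cKO2 and cKO3 and between 10.8 and 15.8 in the WT libraries. *Ly6g* was between 2200 and 3136 in all 6 libraries and did not follow the other neutrophil genes. The list summed to 9641, 2989 and 3235 in cKO1, cKO2 and cKO3 and to 2970 to 3234 in WT libraries. *Ly6g* alone made up most of the sum in every library but cKO1, so the sums do not show the other neutrophil genes. Each of the leukocyte, macrophage, fibroblast and pericyte genes had a log2 fold change above 0, and none of any list passed an adjusted p of 0.05 in limma. T cell genes, with 3 of 7 above 0, summed to 585 to 706 against 557 to 800, and none of the genes of these lists was at 0 in all libraries. The 2 mesothelial genes listed, markers of the outer lining of the colon, did not go together. *Msln* was at 114, 16.6 and 26.8 in cKO1, cKO2 and cKO3 and between 5.93 and 14.4 in WT libraries. *Lrrn4* was near the floor, at 0, 2.21 and 1.03 in cKO1, cKO2 and cKO3 and at 0.988 or below in WT libraries. The part of these cell types in the *Icam1*, *Vcam1* and *Selp* values was not tested.

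**Figure D4:**
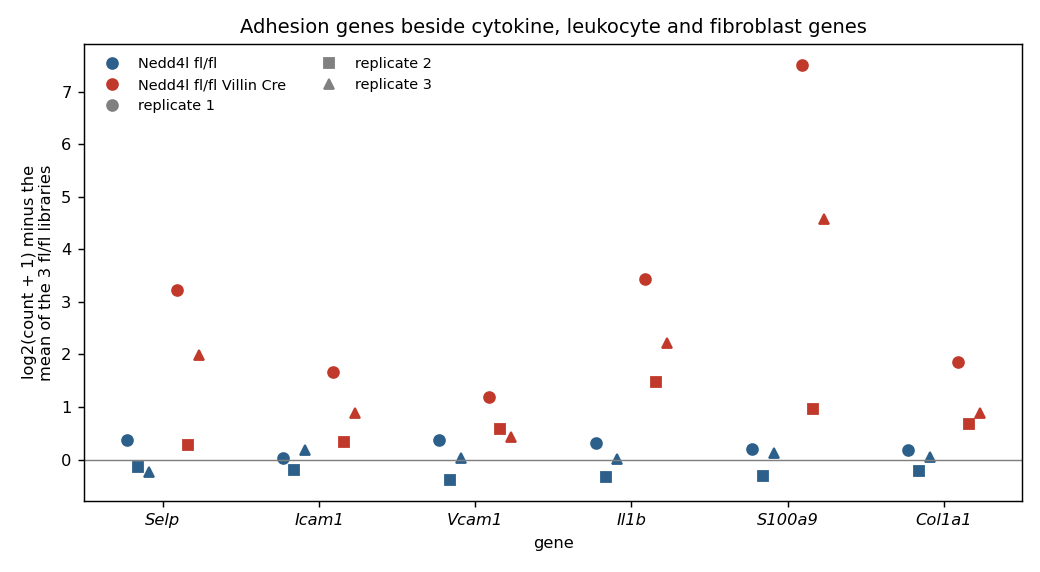
Log2(normalized count + 1) minus the mean of the 3 WT libraries for *Selp*, *Icam1* and *Vcam1* and for *Il1b*, the neutrophil gene *S100a9* and the fibroblast gene *Col1a1*, by library. cKO1 is the highest point for all 6 genes, and cKO3 is above cKO2 for every gene except *Vcam1*.

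The genes whose profile over the 6 libraries came closest to each of the 10 were found among 13921 other protein-coding genes tested, by the root-mean-square difference of centered log2 values. *Icam1* was closest to *Artn* (0.056) and *Eif4e3* (0.083), on a scale where its own root-mean-square deviation was 0.63. *Vcam1* was closest to *Pcdh7* (0.056) and to *Pdpn* (0.081), the podoplanin gene of lymphatic endothelium and fibroblasts. For *Selp*, whose own deviation was 1.27, the closest were *Atg9b* (0.145) and *Iigp1* (0.149). *Pecam1* had *Cd33* (0.090) and *Lifr* (0.093) as its nearest genes, *Cdh5* had *Gbp9* (0.076) and *Mmp2* (0.080), and *Plvap* had *Timp2* (0.068) and *Milr1* (0.070). The nearest to *Kdr* were *Dnaaf3* (0.039) and *Ppp1r15a* (0.060), to *Ackr1* *Il12rb1* (0.066) and *Grk4* (0.112), to *Sele* *Col22a1* (0.108) and *Plekhs1* (0.133), and to *Madcam1* *Gdf11* (0.102) and *Spic* (0.116). None of the 10 genes was among the 2 nearest of another.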

How the data were processed

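Gene values of 3 cKO and 3 WT colons came from 1 table with 6 library columns. In it the authors deposited normalized counts, a signal obtained by dividing reads by a size factor (a read is worth 0.9 to 1.11 depending on the library). The submitters' processing notes name HISAT2 2.0.5 and featureCounts 1.5.0-p3 and a human build, while the table's gene identifiers match mouse GRCm38 (97.0% of genes have the coordinates of GENCODE mouse release 21, and all 10 genes do); use of strand and treatment of shared reads are not given in the sources used here. The table also holds the authors' genotype means, fold changes and p-values, which were not used.

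On log2(value + 1), the 16246 genes averaging 10 or more were compared with the moderated linear model of limma 3.58.1 (trended and robust prior, R 4.3.3), and p-values were adjusted by Benjamini-Hochberg, with 0.05 as the threshold. The procedure was tested on simulated data with planted changes. Libraries were drawn independently and none was set apart, so this did not cover a library such as cKO1. No pair of libraries was identical. Levels per kilobase use the table's gene length. Plots come from matplotlib 3.10.9 in Python 3.11.15. Named are the 10 genes, *Nedd4l*, the 3 genes of smallest p in each of 6 related lists and the 2 genes nearest to each of the 10; others, among them *S100a9*, *Ly6g*, *Lyve1*, *Prox1*, *Cxcl13*, *Col1a1*, *Tnf* and *Gm16587*, were named after their values were seen, and 1 gene that the rule names is not reported here. The 10 genes and all lists were chosen with earlier results of these data known.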

Additional observations from a re-analysis of the deposited data

How the results depend on the processing

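Over 15 alternatives 7 of the 9 genes tested kept the sign of their difference. Leaving out 1 library moved the log2 fold change of *Ackr1* between -0.20 and 0.38 and that of *Kdr* between -0.19 and 0.045. The sign of *Ackr1* turned on omission of cKO1 (-0.20) or WT2 (-0.058) and with library weights (-0.15), and the sign of *Kdr* on omission of cKO2 (0.045) or WT3 (0.024); the cause was not tested. Across all genes 0 lower and 0 higher were called by limma, against 1151 and 1122 at an unadjusted p under 0.05. Library weights gave 369 lower and 262 higher, and no filter on low values gave 23 lower and 7 higher; leaving out 1 library gave 0 to 52 lower and 0 to 70 higher, the most without cKO2. Of the 10 genes 0 to 1 were called when 1 library was left out, *Selp* being the 1 (without cKO2), and 0 in the other settings. *Nedd4l* passed adjustment on omission of cKO2 and with library weights (log2 fold change -1.09, limma adjusted p = 0.0212).

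With the replicate number as a block 0 genes were called. Same-numbered libraries had correlations of their deviations of -0.029, -0.090 and -0.056, and no library correlated best with its own number. The values thus showed no sign of pairing by number. Whether same-numbered mice shared a litter, cage or day cannot be told from correlations this close to 0.

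Count models on reads, and a trimmed-mean scaling of reads, were not run, since the step of 1 library (WT3) was too close to 1 for its values to pass the criterion for recovered reads; a median-ratio scaling, chosen after seeing the data, called 0 genes. Depth limits *Sele*, with at most 16 smallest values in a library.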

Other observations

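Lymphatic and arterial endothelium were followed by lists of their own. Of 7 lymphatic genes tested 5 were above 0 and 2 below, with a median log2 fold change of 0.17 (0.17 without cKO1 and 0.0070 without cKO2), beside 0.42 for the 30 general endothelial genes (0.15 without cKO1 and 0.53 without cKO2). *Pdpn* was the only one at an unadjusted p under 0.05 (379, 219 and 207 in cKO against 190, 105 and 149 in WT1, WT2 and WT3, log2 fold change 0.84, limma adjusted p = 0.310), and it is also a fibroblast gene. At that level 6.91% of all genes tested were higher and 7.08% lower. *Lyve1* (166, 133 and 158 against 200, 130 and 167) and *Prox1* (36.4, 27.6 and 36.1 against 52.3, 26.1 and 16) overlapped between genotypes. Of 6 arterial genes 3 were above 0 and 3 below (median 0.078, and -0.16 without cKO1). At an unadjusted p under 0.05 there were 0, beside the same 6.91% and 7.08% of all genes tested. These differences between vessel types were not tested against each other.

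Of 12 tested genes of high endothelial venules and mucosal follicles 11 were above 0 and 1, *Chst4*, below (median 0.35, and 0.13 without cKO1). At an unadjusted p under 0.05, 0 were higher and 1, *Chst4*, was lower, beside 6.91% and 7.08% of all genes tested. *Chst4* is among the enzymes named above as made by many cell types of the colon. *Nkx2-3*, which encodes a homeodomain factor needed for *Madcam1* expression in gut vessels, stood at 283, 268 and 279 against 243, 200 and 234, without overlap (log2 fold change 0.30, limma adjusted p = 0.359). *Cxcl13*, the B cell follicle chemokine, was at 2242 in cKO1 and between 257 and 474 in the other 5 libraries, and *Tnfsf11* was at 122 in that library and between 18.8 and 50.9 in the others. Smooth muscle genes, 6 of 6 below 0 (median -0.54), summed to 20465 in WT2 and to 4824 to 10588 in the other 5. The library WT2 was the lowest of all 6 for 6 of the 10 genes, against 18.7% of all genes tested. The part of muscle content in the values of the 10 genes was not tested.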
